A study of Mus musculus with 6 samples.

Results

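This report covers 10 genes that control the first gap phase (G1) of the cell cycle, measured in fibroblasts and endothelial cells of the pressure-loaded mouse heart. They are the D cyclin genes Ccnd1, Ccnd2 and Ccnd3, the E cyclin genes Ccne1 and Ccne2, the cyclin-dependent kinase genes Cdk4 and Cdk6, and the inhibitor genes Cdkn1a (p21), Cdkn1b (p27) and Cdkn2c (p18). They were chosen by symbol: every probe set annotated with exactly 1 of these symbols was taken, 27 of the 45101 probe sets on the array, for 10 of 18194 genes. A gene's main value is that of its brightest probe set on average.

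Left ventricles came from Black Swiss males 8 to 10 weeks of age, and cells were isolated and sorted 1 week after surgery. The surgery was transverse aortic constriction (TAC), in which a ligature narrows the aortic arch and the ventricle pumps against a higher pressure, or a sham operation, with 3 mice for each. Each surgery gave 1 array of Tie2-Cre traced fibroblasts, 1 of fibroblasts without the trace and 1 of endothelial cells, so there are 6 groups with 1 array each. Tie2-Cre places the recombinase under the Tek promoter, Tek being an endothelial receptor gene, and the trace marks cells in which, or in whose ancestors, that promoter was active. The labels name no reporter allele and no further genotype, and they do not say whether arrays share hearts or hold the pooled RNA of several mice.

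In G1, growth signals raise D cyclins, which pair with the kinases Cdk4 and Cdk6 and start to phosphorylate the retinoblastoma protein. E cyclins with Cdk2 complete that step, release E2F transcription factors and let the cell enter S phase. Inhibitors of the p18 family bind Cdk4 and Cdk6, while p21 and p27 bind cyclin and kinase complexes, and p21 is a classical target of p53. In the adult heart fibroblasts and endothelial cells are mostly quiescent, and both can divide again under pressure overload.

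The promoter windows of Cdk4 and Cdk6 are shown because every probe set of both kinases stood higher after TAC in all 3 populations and the bases before their start sites hold an E-box. That E-box is CACGTG, a palindrome that Myc and related factors can bind. Both stretches are the 250 bases before the start site, from RefSeq on GRCm38.p6, with the E-box in capitals.
Cdk4, chr10:127063285-127063534, + strand: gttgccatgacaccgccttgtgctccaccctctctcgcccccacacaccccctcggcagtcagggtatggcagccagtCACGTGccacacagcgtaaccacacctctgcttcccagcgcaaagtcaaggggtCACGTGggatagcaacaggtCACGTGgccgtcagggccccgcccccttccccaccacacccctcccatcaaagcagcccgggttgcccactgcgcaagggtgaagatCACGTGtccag
Cdk6, chr5:3343643-3343892, + strand: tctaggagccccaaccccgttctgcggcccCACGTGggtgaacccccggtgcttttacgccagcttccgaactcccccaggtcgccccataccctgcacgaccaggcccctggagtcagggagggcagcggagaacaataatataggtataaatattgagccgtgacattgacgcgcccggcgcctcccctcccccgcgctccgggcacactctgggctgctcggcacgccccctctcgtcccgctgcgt
The window of Cdk4 holds 4 E-boxes, beginning 172, 118, 98 and 11 bases before the start site, and that of Cdk6 holds 1, beginning 220 bases before it. RefSeq windows of 300 bases (250 before the start site and 50 after) were found for 7 of the 10 genes, 10 windows in all. An E-box was in 3 of the 10 windows, 1 each for Cdk4, Cdk6 and Cdkn2c, beside 7.15% of 32851 windows of the same length. In Cdkn2c it lies 34 bases after the start site, so outside the stretch printed for the kinases. Of the 32851 windows 0.0244% hold 4 or more E-boxes. The E2F motif, searched on both strands as TTTCCCGC, TTTGGCGC, TTTCGCGC or TTTGCCGC, was in 0 of the 10 windows and in 2.26% of all windows. The cyclic AMP response element TGACGTCA was in 0 of the 10 windows and in 1.79% of all. Every probe set of Ccnd1, Ccne1, Ccne2 and Cdkn2c also stood higher after TAC in all 3 populations. The 1 window of Ccne1 holds no E-box, and no window was found for Ccnd1 or Ccne2. The motifs were chosen with the values known, and a match is a description of the letters only.

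All levels below are log2 of the deposited probe set intensity, and differences are differences of log2 values, so that 1 is 2-fold. Levels are compared between arrays for 1 probe set and never between genes, because probe sets differ in how brightly they bind. Array medians lay between 106.6 and 115.2 intensity units. The untraced TAC array stood apart in 18S ribosomal RNA (12.04 against 14.11 to 14.64 on the other arrays). The endothelial TAC array carried more fibroblast RNA than the endothelial sham array: all 8 fibroblast markers were at least 2-fold higher on it (median difference 3.03). Their summed intensity was 2673 on the endothelial sham array, 31396 on the endothelial TAC array and 83815 to 87949 on the fibroblast arrays. The dimmest of them on the endothelial TAC array stood at an intensity of 286, above that array's median of 115.2. The 8 endothelial markers summed to 88222 at sham and 73703 after TAC on the endothelial arrays and to 2291 to 5132 on the fibroblast arrays. The labelled cell types therefore carried their markers, except that fibroblasts also had Tek at 10.70 to 11.91.

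**Figure D1:**
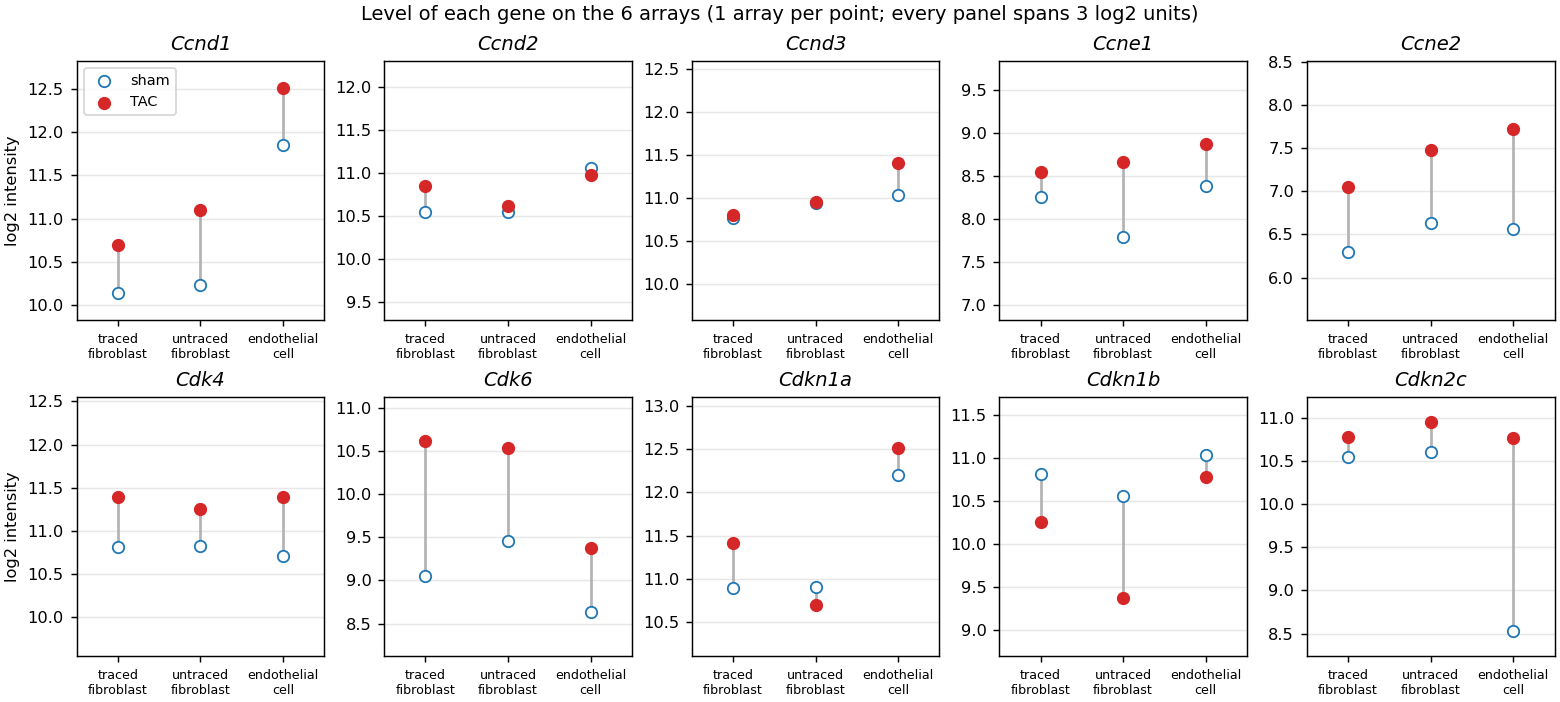
Level (log2 intensity, y axis) of the main probe set of each of the 10 genes in traced fibroblasts, untraced fibroblasts and endothelial cells; open circles are sham arrays, filled circles TAC arrays, 1 array per point, joined by a line. At these probe sets Cdk6 has its largest steps in fibroblasts and Cdkn2c in endothelial cells, while Ccnd1 and Cdkn1a are highest on both endothelial arrays.

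The first comparison sets TAC against sham hearts, population by population. Of the 10 genes, 8 stood higher after TAC in both fibroblast populations and 7 in all 3 populations, at backgrounds of 44.0% and 33.9% of detected genes, and 1 stood lower in both fibroblast populations (background 32.7%). For 7 genes both fibroblast TAC arrays lay above both sham arrays (background 34.0%). These counts take differences of any size. Ccnd3 entered at 0.03 in traced and 0.02 in untraced fibroblasts, and Ccnd2 at 0.06 in untraced fibroblasts. The gains were mostly below 2-fold: the median difference was 0.42 in traced fibroblasts, 0.39 in untraced fibroblasts and 0.57 in endothelial cells, beside 0.08, 0.02 and 0.18 over all detected genes. Cdk6 was the 1 gene at least 2-fold higher in both fibroblast populations (background 4.33%), and 0 were 2-fold lower in both (1.79%). In endothelial cells Ccne2 and Cdkn2c were at least 2-fold higher (background 10.9%) and 0 were 2-fold lower (1.83%). In both cell types Ccne2 passed the filter on dim genes only through the TAC arrays. Its place in the medians and in each count that includes it therefore rests on the group where it was high. Each population has 1 array per surgery, so these differences have no error of their own and were not tested. In sorted bulk RNA a larger share of cycling cells and more transcript per cell cannot be told apart.

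Among the D cyclins, which link growth signals to the cycle, Ccnd1 had the largest TAC minus sham differences in all 3 populations at the main probe sets. Its level went from 10.14 at sham to 10.69 after TAC in traced fibroblasts, from 10.23 to 11.10 in untraced fibroblasts and from 11.85 to 12.51 in endothelial cells. Both TAC fibroblast arrays lay above both sham arrays, and all endothelial values lay above all fibroblast values. The differences of 0.55, 0.88 and 0.65 are folds of 1.47, 1.84 and 1.57. All 3 Ccnd1 probe sets gave the same direction in every population, with fibroblast means from 0.65 to 0.80. On the fibroblast arrays 8 of 8 endothelial markers were lower after TAC than at sham, and their part in the Ccnd1 values was not tested.

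Ccnd2 and Ccnd3 differed by at most 0.37 between surgeries at their main probe sets. Ccnd2 stood at 10.54 at sham and 10.85 after TAC in traced fibroblasts, at 10.55 and 10.61 in untraced fibroblasts, and at 11.05 and 10.97 in endothelial cells. Its 7 probe sets did not share a direction: 4 were higher after TAC in traced fibroblasts, 3 in untraced fibroblasts and 3 in endothelial cells, and their fibroblast means ran from -0.27 to 0.51. Ccnd3 stood at 10.77 and 10.80 in traced fibroblasts, at 10.94 and 10.96 in untraced fibroblasts, and at 11.04 and 11.41 in endothelial cells. The surgeries overlapped in fibroblasts, and with quantile normalization the fibroblast mean of 0.02 became -0.01. The other Ccnd3 probe sets were dim, 1 of them below the array median on all 6 arrays, and 1 read -1.25 in endothelial cells against 0.37 at the main probe set.

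The E cyclins, partners of Cdk2 at the entry to S phase, stood higher after TAC in every population but were dim: neither passed the upper quartile of any array. Ccne1 went from 8.26 to 8.54 in traced fibroblasts, from 7.79 to 8.66 in untraced fibroblasts and from 8.38 to 8.87 in endothelial cells. The gain in untraced fibroblasts (0.87) was larger than that in traced fibroblasts (0.28), and all TAC arrays lay above all sham arrays. The main Ccne1 probe set ends in _x_at, a suffix for possible cross-hybridisation. The other probe set of Ccne1, without that suffix and dimmer, gave 0.44, 1.25 and 1.65 in the same order of populations. Ccne2 went from 6.30 to 7.05 in traced fibroblasts, from 6.63 to 7.48 in untraced fibroblasts and from 6.56 to 7.72 in endothelial cells. All TAC arrays lay above all sham arrays, but the 3 sham values were below the medians of their arrays, so the differences of 0.75, 0.85 and 1.16 are set against levels at which Ccne2 did not pass the filter.

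Of the kinases, Cdk6 had the largest fibroblast difference of the 10 genes. It went from 9.05 to 10.62 in traced fibroblasts, from 9.46 to 10.53 in untraced fibroblasts and from 8.63 to 9.38 in endothelial cells. Both TAC fibroblast arrays stood above every other array. The folds were 2.98, 2.10 and 1.69, and the other Cdk6 probe sets gave fibroblast means of 1.32 and 0.90 and endothelial differences of 1.26 and 1.19. At the third Cdk6 probe set the traced and untraced differences were 1.11 and 0.69, below its endothelial difference of 1.19. The untraced value brought the mean of all Cdk6 probe sets below 2-fold in 1 of the fibroblast populations. Both other probe sets passed 2-fold in endothelial cells, where the main one did not.

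Cdk4 went from 10.81 to 11.39 in traced fibroblasts, from 10.83 to 11.25 in untraced fibroblasts and from 10.71 to 11.39 in endothelial cells. The 3 sham arrays were within 0.12 of each other at 10.71 to 10.83 and lay below the 3 TAC arrays. Folds were 1.49, 1.34 and 1.61, and the 3 Cdk4 probe sets shared the direction, with endothelial differences of 0.68 to 1.07. Myc, a factor that can bind the E-box in the Cdk4 and Cdk6 windows, stood 0.73 and 0.79 higher after TAC in traced and untraced fibroblasts. In endothelial cells Myc went from 7.20 to 10.98. Myc stood at 11.47 to 12.28 in fibroblasts, and whether fibroblast RNA on the endothelial TAC array had a share in its endothelial difference was not tested.

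**Figure D2:**
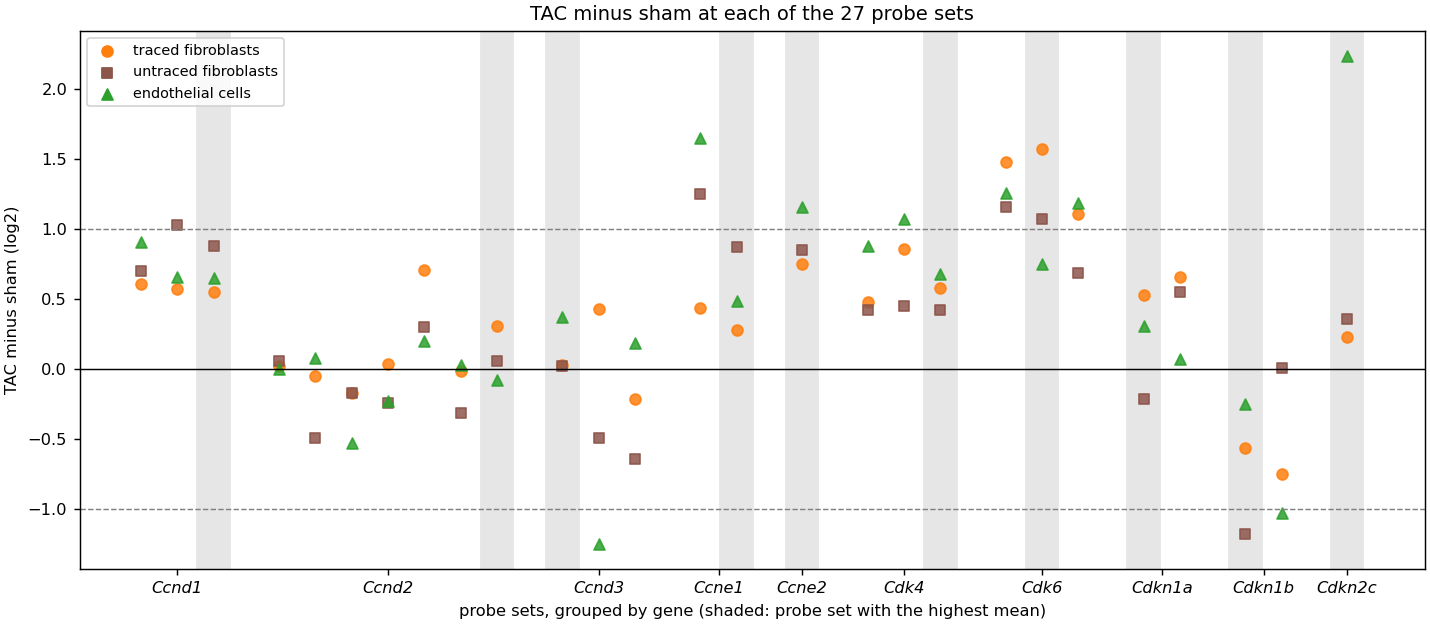
TAC minus sham (log2, y axis) at each of the 27 probe sets, grouped by gene on the x axis, in traced fibroblasts (circles), untraced fibroblasts (squares) and endothelial cells (triangles); dashed lines mark 2-fold and grey bands the main probe sets. In all, 16 probe sets are higher in all 3 populations and 2 are lower in all 3, and the points of Ccnd2 and of the dim Ccnd3 probe sets scatter around 0.

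The 3 inhibitors went different ways. Cdkn1b, the p27 gene associated with quiescence, stood at 10.82 at sham and 10.26 after TAC in traced fibroblasts, at 10.56 and 9.38 in untraced fibroblasts, and at 11.03 and 10.78 in endothelial cells. Both TAC fibroblast arrays lay below both sham arrays, by 1.47-fold and 2.26-fold, and Cdkn1b was the 1 gene of the 10 with that order (background 26.2%). The second Cdkn1b probe set gave -0.75 in traced fibroblasts, 0.01 in untraced fibroblasts and -1.03 in endothelial cells. The 2-fold difference in untraced fibroblasts was thus read by 1 of the 2 probe sets, on the array with low 18S ribosomal RNA, whose part in it was not tested.

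Cdkn1a stood at 10.89 and 11.42 in traced fibroblasts, at 10.91 and 10.70 in untraced fibroblasts and at 12.20 and 12.51 in endothelial cells. The surgeries overlapped in fibroblasts. Its second probe set gave 0.66, 0.55 and 0.07, so the probe sets differed in sign in untraced fibroblasts, again on the array with low 18S ribosomal RNA. The p53 targets Mdm2 (0.52, 0.25 and 0.61) and Ccng1 (0.44, 0.27 and 0.53), measured as TAC minus sham in traced fibroblasts, untraced fibroblasts and endothelial cells, were higher by less than 2-fold.

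Cdkn2c, which encodes an inhibitor of Cdk4 and Cdk6, had the largest single step. It went from 10.55 to 10.78 in traced fibroblasts and from 10.60 to 10.95 in untraced fibroblasts, but from 8.53 to 10.77 in endothelial cells, a fold of 4.72. The endothelial sham array alone was low, and the endothelial TAC array lay within the range of the fibroblast arrays. Among 2518 detected genes at least 2-fold higher on both fibroblast sham arrays than on the endothelial sham array, 31.2% were at least 2-fold higher on the endothelial TAC array, with a median difference of 0.68. That group, to which Cdkn2c belongs, was formed after the values were seen and shares the endothelial sham array with the difference. Whether fibroblast RNA on the endothelial TAC array had a part in the step of Cdkn2c was not tested.

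Traced and untraced fibroblasts were compared at each surgery, with no test. In traced minus untraced fibroblasts, 0 of the 10 were 2-fold apart at both surgeries, at a background of 0.0344% in either direction, and 8 were within 0.5 at both, beside 9989 of 11623 detected genes. These counts do not set the 10 genes apart from the rest. The exceptions were Cdkn1a (-0.02 at sham and 0.72 after TAC) and Cdkn1b (0.26 and 0.87). For Cdkn1a the traced array was 0.53 higher after TAC than at sham and the untraced array stood at -0.21; for Cdkn1b these differences were -0.56 and -1.18. The second probe sets of traced minus untraced fibroblasts gave 0.02 for Cdkn1a and -0.25 for Cdkn1b after TAC. Cdk6 was -0.42 and 0.09, Ccne1 0.48 and -0.11, Ccnd1 -0.09 and -0.41, and Ccne2 -0.33 and -0.43.

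The second comparison sets fibroblasts against endothelial cells. Cdkn1a was lower in fibroblasts than in endothelial cells by 2.59-fold, the 1 call among the 10 genes. Ccnd1 differed by 3.11-fold in the same direction but missed the threshold. Traced and untraced arrays of 1 surgery were averaged, which leaves 2 values per cell type, and limma was fitted to 12257 detected genes, with calls at a Benjamini-Hochberg adjusted p under 0.05 and at least 2-fold. Of these genes 11.5% were called with the higher level in fibroblasts and 6.50% with the higher level in endothelial cells, so 1 call in 10 is close to the background. The spread behind each p is only that between these arrays, here the difference between surgeries, and may be partly technical.

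Cdkn1a averaged 10.98 in fibroblasts and 12.36 in endothelial cells, a difference of -1.38 ± 0.242 (SE, limma adjusted p = 0.0271). The difference was -1.30 at sham and -1.45 after TAC, and both probe sets gave it (-1.38 and -1.60). The call was lost without the endothelial sham array (limma adjusted p = 0.0535), without the endothelial TAC array (0.0524) and without the untraced TAC array (0.0568); over the 16 alternatives run for Cdkn1a the range was 0.00487 to 0.0568. The other p53 targets went both ways: of 13 detected, Plk2 (-2.95) was called in the direction of Cdkn1a, Phlda3 (1.98) and Gadd45a (1.94) were called in the other direction, and the list's median difference was 0.55. Bacterial hybridisation controls read 12.14 and 12.29 on the endothelial arrays against 10.68 to 11.22 on the fibroblast arrays, and their part in the differences of Cdkn1a and Ccnd1 was not tested.

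Ccnd1 averaged 10.54 and 12.18, a difference of -1.64 ± 0.385 (SE, limma adjusted p = 0.0518). It was -1.67 at sham and -1.61 after TAC, and the other Ccnd1 probe sets gave -2.73 and -2.07. Over the 16 alternatives run for Ccnd1 the limma adjusted p ranged from 0.00527 to 0.106, and 7 of them made the call, among them surgery as a block (0.00527). Ccnd2 (-0.37) and Ccnd3 (-0.36) also had both endothelial arrays above all fibroblast arrays, an order found in 4 of the 10 genes and in 19.9% of detected genes; the reverse order held in 0 of the 10 and in 37.8% of detected genes. Neither difference passed (limma adjusted p = 0.303 and 0.355). Other probe sets read -0.71 to 0.08 for Ccnd2 and 1.01 and 0.01 for Ccnd3, so not all of them shared the order of the main ones.

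Cdk6 stood higher in fibroblasts at both surgeries, by 0.63 at sham and 1.19 after TAC, but its mean difference of 0.91 had an SE of 0.546 (limma adjusted p = 0.30). Cdkn2c differed by 2.04 at sham and by 0.09 after TAC, a mean of 1.07 ± 0.775 (SE, limma adjusted p = 0.378). Without the endothelial TAC array, which carried fibroblast markers, the difference of Cdkn2c was 2.19 and was called (limma adjusted p = 0.0246), with the lone endothelial value assumed to vary like the others; without the endothelial sham array it was -0.05. Over its 16 alternatives the limma adjusted p ran from 0.0246 to 0.918. For Ccne1 (-0.31), Ccne2 (-0.28), Cdk4 (0.02) and Cdkn1b (-0.65) the limma adjusted p lay between 0.277 and 0.971. The standard errors of these 4 differences, 0.329 to 0.513, leave room for moderate differences either way.

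**Figure D3:**
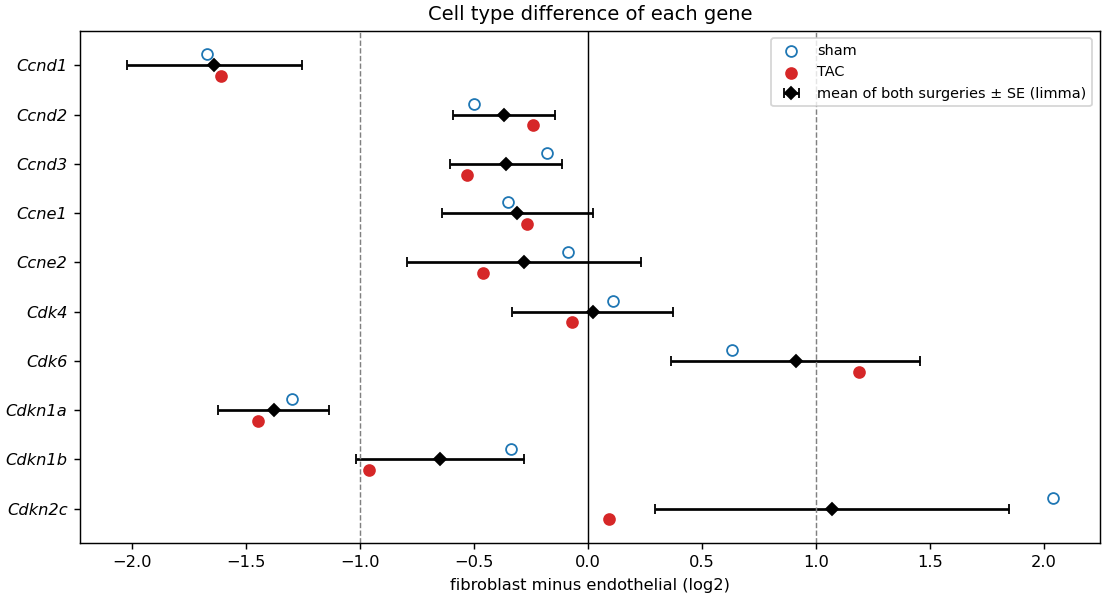
Fibroblast minus endothelial difference (log2, x axis) of each of the 10 genes: diamonds are the means over both surgeries with the limma standard error, open circles sham, filled circles TAC; dashed lines mark 2-fold. Ccnd1 and Cdkn1a are below -1 at both surgeries, and Cdkn2c moves from 2.04 at sham to 0.09 after TAC.

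The genes that act with or after these 10 were counted in the same way. Of 24 other G1 and S phase regulators detected in fibroblasts, 7 were at least 2-fold higher after TAC in both populations (background 4.33%) and 0 lower (1.79%). Their median was 0.72, against 0.40 for the 10 genes and 0.05 for all. In fibroblasts the leading differences belonged to the repressive E2F genes E2f7 (3.17) and E2f8 (2.72), the pocket protein gene Rbl1 (2.43) and Cdkn2b (2.23), which encodes the Cdk4 and Cdk6 inhibitor p15. At sham Rbl1, E2f2, E2f7 and E2f8 lay below the array medians in both fibroblast populations, E2f7 at 4.30 and 3.85. In fibroblasts they passed the filter only through TAC arrays. Their places in the count and the median of these regulators therefore rest on the group where they were high. E2f1, an activating E2F, was 1.42 higher and Skp2, which targets p27 for destruction, 1.23 higher, while Cdk2 (0.90) and the retinoblastoma gene Rb1 (-0.30) were within 2-fold.

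In endothelial cells 12 of 22 such regulators were at least 2-fold higher (background 10.9%) and 1 lower (1.83%). Their median was 1.31 against 0.57 for the 10 genes. The leading values were those of Cks1b (3.80), a cofactor of cyclin-dependent kinases, Myc (3.78), E2f8 (3.55) and E2f2 (2.79). At sham E2f8 (6.09), E2f2 (5.81) and Skp2 (5.92) lay below the median of the endothelial array (6.84). These genes passed the filter only through the endothelial TAC array, where they were high. The 1 lower gene, Cdkn1c, which encodes the inhibitor p57, was named after its values were seen: it stood -1.65 in endothelial cells, -0.99 in traced fibroblasts and -1.18 in untraced fibroblasts. Between the cell types 1 of 24 was called, Rbl2 at 1.16 (limma adjusted p = 0.0351), also named after its value was seen.

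Genes of S phase and mitosis differed more than the G1 genes. Of 14 S phase genes under E2F control 9 were at least 2-fold higher in both fibroblast populations (background 4.33%) and 13 in endothelial cells (10.9%). Their medians were 1.68 in fibroblasts and 2.32 in endothelial cells. Ccna2, the S phase cyclin gene, stood 2.85 above sham in fibroblasts and 3.94 above it in endothelial cells, and Pcna, the sliding clamp gene, 0.53 and 1.15. All 9 mitotic genes with a probe set of 1 symbol were at least 2-fold higher in both cell types (medians 3.27 and 4.04), Cdk1 by 3.50 and 3.90. On the endothelial sham array Ccnb2, Aurka, Aurkb, Bub1, Top2a, Birc5, Cdc6 and Tk1 lay at 4.72 to 6.82, below the array median of 6.84. On both fibroblast sham arrays Aurkb, Bub1, Top2a, Cdc6, Gmnn and Tk1 lay below the array medians of 6.82 and 6.80. These genes passed the filter there only through TAC arrays, so their places in the counts rest on the group where they were high. On the endothelial TAC array the level of Cdk1 was 11.37, above the 10.38 and 10.74 of the TAC fibroblast arrays. Of 13 p53 targets 2 were 2-fold higher in both fibroblast populations (background 4.33%), Eda2r (1.52) and Plk2 (1.36). In endothelial cells 3 were 2-fold higher (background 10.9%), Zmat3 (1.46), Gadd45a (1.13) and Phlda3 (1.06).

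**Figure D4:**
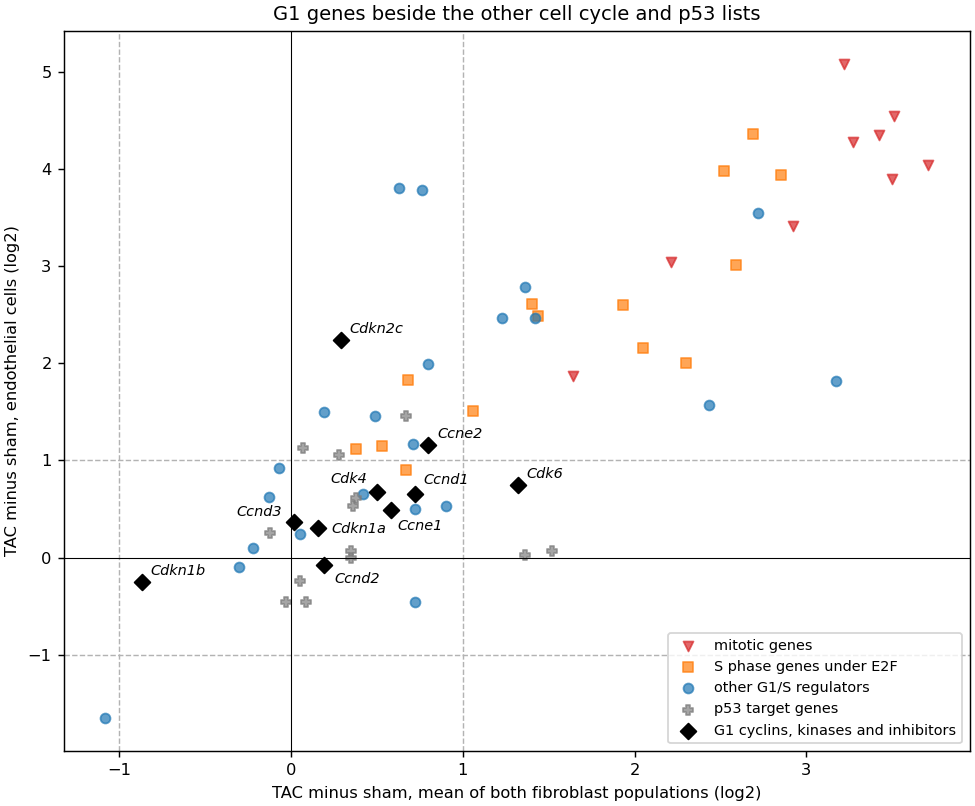
TAC minus sham in endothelial cells (log2, y axis) against the mean of both fibroblast populations (log2, x axis), 1 point per gene: the 10 G1 genes (diamonds, named), mitotic genes (triangles), S phase genes (squares), other G1 and S phase regulators (circles) and p53 targets (crosses); dashed lines mark 2-fold. The mitotic genes lie at the upper right, with medians of 3.27 and 4.04, and the 10 G1 genes below and to the left of most of them, with medians of 0.40 and 0.57.

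Other cell types' markers varied over the fibroblast arrays too. The 8 macrophage markers summed to 1254 and 2051 at sham and to 1012 and 1466 after TAC, with median TAC minus sham differences of -0.13 in traced and 0.08 in untraced fibroblasts; Cx3cr1 (-1.55 and -1.93) and Csf1r (1.44 and 0.96) went opposite ways. Of 7 mural markers 4 were lower and 2 higher in both fibroblast populations (medians -1.07 and -1.49), among them Vtn (-1.63 and -2.50) and Myh11 (-1.92 and -1.71), and their sums were 8153 and 9121 at sham and 8191 and 7373 after TAC. On the endothelial arrays the mural sum was 14673 at sham and 9254 after TAC, and the cardiomyocyte sum 6164 and 3505. The macrophage sum there was 929 at sham and 1583 after TAC. Of these 8 markers 6 were higher and 2 at least 2-fold higher, Csf1r (1.74) and Cd68 (1.3). On the fibroblast arrays the 7 cardiomyocyte markers summed to 781 and 847 at sham and to 1106 and 1339 after TAC. The 5 lymphocyte markers with a probe set were below the median on all fibroblast arrays. Their part in the differences of the 10 genes was not tested.

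For the 3 genes with the widest range over the 6 arrays, the genes with the most similar profile were sought by the root mean square difference between log2 values centred on each gene's own mean. For Cdkn2c (range 2.42) these were Tubb6 (0.0978), a tubulin gene, Pak4 (0.0987), a kinase gene, and Ltv1 (0.17). For Ccnd1 (range 2.37) they were Tm6sf1 (0.149), Hyal2 (0.164), a hyaluronidase gene, and Casp8 (0.167), a caspase gene. For Cdk6 (range 1.99) they were Zbtb25 (0.0878), Hs6st2 (0.133), a heparan sulfate sulfotransferase gene, and Ada (0.142), adenosine deaminase. The profiles rest on 6 arrays.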

How the data were processed

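RNA of 200 ng per sample was labelled and hybridised to Affymetrix mouse arrays, 1 array per group, per the labels' protocols. The authors deposited linear intensity values for 45101 probe sets per array (3.82 to 37205). Per the submitters' processing notes they were made with RMA, which corrects background, normalizes between arrays and summarises probes on a log2 scale. Its version is not given in the sources used here, and the step back to a linear scale is read from the values. RMA shrinks the contrasts of dim probe sets, and it makes no call of detection.

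Here log2 was taken and no further normalization applied. Probe sets were named from the platform's annotation, with symbols renewed through gene identifiers: 34958 probe sets had 1 symbol (99.4% matched a current one), 932 several and 9211 none. A gene was detected when above the median of its array on at least 1 array compared: 12257 genes on 6 arrays, 11623 on the fibroblast and 11157 on the endothelial arrays. All 10 genes were detected. The fit between cell types used lmFit and eBayes of limma 3.58.1 (R 4.3.3) and was tested on simulated data. All other comparisons set 1 array against 1, with no test. The number of arrays limits the precision. No array was identical to another.

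The 10 genes, the lists and the tests were chosen with earlier results of these data known. Named are the 10 genes, the 4 genes of a list with the largest differences, and a fixed set of regulators. Alternatives changed the probe set rule, scaling, filter, offset, fold, model and arrays used.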

Additional observations from a re-analysis of the deposited data

Results flagged for a closer look

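Ccnd2 was singled out because its TAC minus sham difference had opposite signs in the cell types: it was -0.08 in endothelial cells and 0.31 and 0.06 in traced and untraced fibroblasts. The difference between cell types was not tested, and other Ccnd2 probe sets did not share these signs.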

How the results depend on the processing

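Pairing by replicate number was not possible, because every group has the single number 1, which pairs nothing by itself. Surgery was used as a block between cell types. All 3 populations have an array at both surgeries, but TAC against sham with population as a block was not run. The count of the 10 genes called between cell types, 1 in the main analysis, was 2 (Ccnd1 and Cdkn1a) with the mean of all probe sets, with quantile normalization, with an offset of 50, with surgery as a block and with 6 arrays as separate samples. It ran from 0 to 2 when 1 array was left out. Over all genes, 1415 higher in fibroblasts became 2298 with surgery as a block and 2211 with 6 separate samples; leaving out 1 array gave 685 to 1715 there and 472 to 817 for the 797 higher in endothelial cells, both lowest without the endothelial sham array. The count of genes 2-fold apart in both fibroblast populations, 1 (Cdk6), was 0 with the mean of all probe sets, 2 at a 1.5-fold threshold and 1 to 2 with a single population, Cdkn1b being added by the untraced pair. The endothelial count of 2 was 4 with the mean of all probe sets, 3 without _x_at and _s_at probe sets (Ccne1 joining at 1.65), 1 with the upper quartile filter, 1 with the offset and 5 at 1.5-fold. Over all genes, the 503 higher in both fibroblast populations and the 1213 higher in endothelial cells became 1035 and 2746 at 1.5-fold and 256 and 618 with the upper quartile filter. The 208 and 204 lower became 565 and 852 at 1.5-fold, and the 204 became 132 with that filter. The count for the lineage trace was 0 under every alternative run for it. Quantile normalization moved the endothelial median of all detected genes from 0.181 to 0.055. Uncalled cell type differences changed sign under at least 1 alternative for Ccnd2 (-0.44 to 0.08), Ccnd3 (-0.54 to 0.22), Ccne2 (-0.86 to 0.31), Cdk4 (-0.32 to 0.36) and Cdkn2c (-0.05 to 2.19), as did TAC differences of Ccnd2 and Ccnd3. The cause of these changes was not tested.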
